A study of Mus musculus with 9 samples.

Results

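The SIBLING genes encode the small integrin-binding ligand, N-linked glycoproteins, a family of acidic phosphoproteins that are secreted into bone and dentin matrix. Ibsp, Spp1, Dmp1, Mepe and Dspp were taken by name from the deposited expression table, which held 43548 gene identifiers, and each of the 5 had a single identifier there. The proteins carry many phosphorylated serines and stretches of acidic residues that bind calcium and hydroxyapatite, and an RGD sequence through which they bind integrins on cells. Bone sialoprotein (Ibsp) can nucleate mineral, osteopontin (Spp1) restrains crystal growth, Dmp1 and Mepe are best known from osteocytes, and Dspp is the main non-collagen matrix gene of odontoblasts. In the embryonic skull vault, where osteoblasts form directly from mesenchyme, the appearance of Ibsp and Spp1 marks cells that have begun to lay down mineralizing matrix, and in cartilage Ibsp and Spp1 are also made by late hypertrophic chondrocytes.

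RNAseq had been performed on 9 libraries of mouse embryonic head tissue at E14.5, with 3 libraries per group and RNA from 3 tissue samples pooled in each library. The MCAGF8 cranial vault came from embryos carrying the Msx2-Cre transgene and the CAGFgf8 allele, an Fgf8b cDNA behind a stop cassette and a CAG promoter at the Rosa26 locus that Cre switches on. Msx2-Cre acts in the head surface ectoderm, so the allele was switched on over the tissue that was sampled and not in the mesenchyme that forms the bone. The vault and the cranial base of controls came from embryos that the labels call wildtype and the study describes as lacking Cre. The allele parent was homozygous by the study's breeding scheme, so the controls also carried the allele in its silent form. The strain is given as mixed for every group. The skin was peeled off before the vault was taken, and the base was the cartilage beneath the brain of control embryos. Control embryos gave both vault and base, how the pools of vault and base match by embryo is not stated, and the fit took all libraries as independent. Pooling 3 samples hid how much single embryos differ. Whether the pools came from separate litters is not stated either, so the p-values measure the spread between these pools.

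The 5 genes lie side by side on chromosome 5, all on the plus strand, within 270.3 kb that hold no other protein-coding gene (chr5:104170712-104441050, GRCm38, GENCODE M21). In order along the chromosome these are Dspp (ENSMUSG00000053268, chr5:104170712-104180127), Dmp1 (ENSMUSG00000029307, chr5:104202613-104214102), Ibsp (ENSMUSG00000029306, chr5:104299171-104311469), Mepe (ENSMUSG00000053863, chr5:104325329-104338611) and Spp1 (ENSMUSG00000029304, chr5:104435118-104441050). GENCODE gives 1 transcript each for Dspp (5 exons, 4431 bases), Dmp1 (6 exons, 2764 bases), Ibsp (7 exons, 2068 bases) and Mepe (3 exons, 1682 bases), and 7 transcripts for Spp1. These spans and exon structures are those of the reference annotation, since no source used here names the build or annotation that the authors mapped to.

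The sequences just before the transcription starts are shown because the 4 members with a RefSeq promoter entry (Ibsp, Spp1, Dmp1 and Mepe) share a pair of short motifs at the same distance from each other. Dspp had no entry. The sequences are RefSeq promoter sequences on GRCm38.p6, plus strand, 5′ to 3′, ending at the base before the RefSeq start except for Ibsp, and capitals mark ATTGG (the reverse complement of a CCAAT box) and the TATA-like TTTANA on the strand of the gene. For Ibsp a 30-base stretch is shown, from ATTGG to the first 4 letters of TTTANA, because GENCODE begins the transcript 116 bases before the RefSeq start.
Ibsp (chr5:104299233-104299262): ATTGGctgttgagaggcggagaagggTTTA
Spp1 (chr5:104435011-104435110): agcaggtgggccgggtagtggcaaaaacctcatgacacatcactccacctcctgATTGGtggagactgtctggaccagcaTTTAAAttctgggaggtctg
Dmp1 (chr5:104202517-104202616): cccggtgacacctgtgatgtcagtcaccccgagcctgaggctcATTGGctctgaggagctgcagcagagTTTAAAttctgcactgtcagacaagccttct
Mepe (chr5:104325229-104325328): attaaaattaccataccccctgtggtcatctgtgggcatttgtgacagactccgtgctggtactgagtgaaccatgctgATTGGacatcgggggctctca

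Counting the base before the start as -1, ATTGG and TTTANA began at -54 and -28 in Ibsp, at -46 and -20 in Spp1 and at -57 and -31 in Dmp1. In Mepe ATTGG began at -21 and TTTANA at 5, after the annotated start and outside the sequence shown. The distance from the first letter of ATTGG to the first letter of TTTANA was 26 bases in all 4 genes. Among 32851 RefSeq windows of 300 bases (250 before and 50 after a start), 22 windows (0.067%), belonging to 18 of 27025 genes, held the pair at that distance, the 4 members included. Of the other 14 genes with this spacing, 5 were tested for expression and 0 were called by limma between the vaults (0 at an unadjusted p under 0.05), with log2 differences from -0.74 for Vsnl1 to -0.02 for Mbd3. Within the 100 bases before the start, ATTGG was present in 10.4% of windows, TTTANA in 9.5%, and ATTGG followed by TTTANA in 0.536%. The motifs and the spacing were chosen after the 4 sequences had been seen, so these shares describe the sequences and are no test. TGTGGT, the core that RUNX factors bind, was found on either strand of the 300 bases in Spp1, Dmp1 and Mepe and in 16.8% of windows, and TAAT, a core of homeodomain binding, in all 4 members and in 58% of windows.

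Expression was deposited as FPKM (fragments per kilobase of transcript per 1000000 mapped fragments), which corrects for length, so levels can be compared between genes. Across genes, log2 values of libraries of 1 group correlated with Pearson's r of 0.904 to 0.980. Low FPKM of genes with 1 transcript fell on steps that correspond to single reads, and these steps gave an estimated depth of 16.4 to 21.5 M mapped reads per library (M, 1000000). Between 90.5% and 95.6% of the low values checked lay within 0.1 read of a whole number in 7 libraries, against 77.5% in control base replicate 3 and 63.0% in control base replicate 1, where the estimate is less sure. Fgf8 itself, whose Fgf8b form the allele encodes, differed by 0.83 on the log2 scale between the vaults with overlapping groups (adjusted p = 0.969, limma). The skin, with the ectoderm where Msx2-Cre acts, had been peeled off, but epidermis markers were still present. Dusp6, which the study takes as a reporter of FGF signaling, measured 26.9 to 32.6 FPKM in the control vault and 46.5 to 59.5 in the MCAGF8 vault, without overlap. In the base it measured 34.7 to 48.4 FPKM. The labelled tissues were checked against summed markers. Osteoblast markers (7 genes, none of them a SIBLING gene) summed to 2220 to 4830 FPKM in the vault libraries and to 717 to 1515 in the base. Chondrocyte markers (8 genes) summed to 5913 FPKM in control base replicate 2 but to 654 and 841 in replicates 1 and 3. Every vault library was higher (919 to 2476), so by this sum base replicates 1 and 3 went against the label of cartilage. The base replicate 2 library stood apart from them. Single markers differed. Snorc was at least 150 FPKM in every base library and at most 47.5 in the vaults, and Comp at least 11.0 and at most 6.29. The other markers did not lie above both vaults in every base library. Skeletal muscle markers (10 genes) summed to 52.9 to 208 FPKM in the MCAGF8 vault, 920 to 5783 in the control vault and 1744 to 11238 in the base. Skin epidermis markers (10 genes) summed to 380 to 937 FPKM in the MCAGF8 vault, 30.4 to 99.5 in the control vault and 106 to 693 in the base. By this sum epidermal RNA remained after peeling, with more of it in the MCAGF8 than in the control vault.

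Ibsp, Spp1 and Dmp1 fell in the MCAGF8 cranial vault, with log2 differences of -4.69 to -5.81, and were among the 8 genes with the lowest differences of the 18714 tested. In all control vault libraries the order of levels was Ibsp, Spp1, Dmp1, Mepe and Dspp, from 1527 FPKM at the top to 0.0409 at the bottom. The control cranial base lay between the vaults for Ibsp and Spp1, in every library. The test was limma on log2(FPKM + 1), with all 9 libraries in a single fit and genes of mean FPKM below 0.5 removed. A call required both p under 0.05 before adjustment and p under 0.1 after Benjamini-Hochberg adjustment. Of the 5 members 4 passed the filter on low values and Dspp did not. In the vault comparison 3 of these 4 were called, all lower, where 0.374% of all genes tested were called lower and 0.604% were called in either direction. The MCAGF8 values of all 4 lay below the control vault values without overlap, as did those of 9.35% of all genes. The comparisons share libraries, the 3 MCAGF8 libraries or 3 control libraries, and are not independent of each other. Between the vaults 7 of 10 skeletal muscle markers were also called lower by limma, with a median log2 difference of -4.34. Of 10 skin epidermis markers 2 were called higher, with a median of 2.37. The part of these tissues in the members' values was not tested. Tissue was sampled in bulk, so fewer cells of a type and less RNA per cell cannot be told apart.

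**Figure D1:**
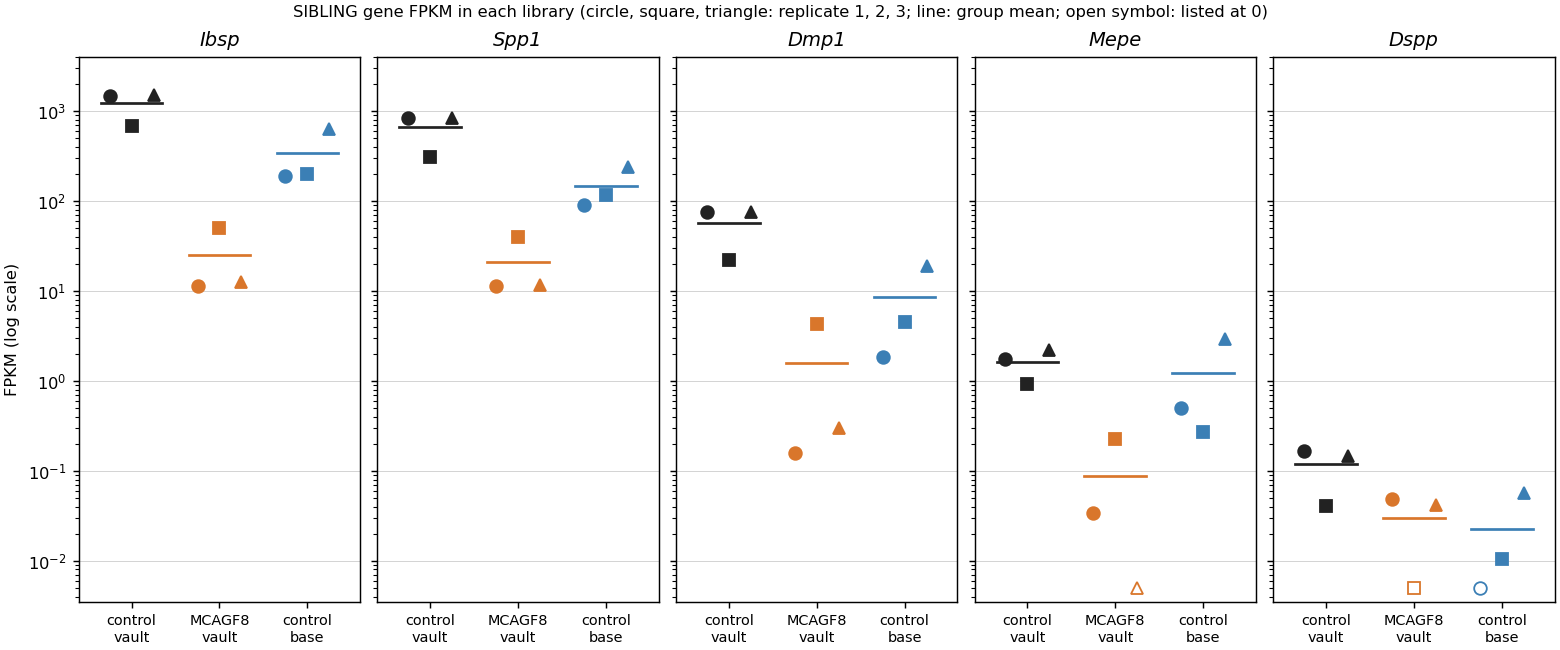
FPKM on a log axis for each SIBLING gene in each of the 9 libraries, with replicate 1 as a circle, 2 as a square and 3 as a triangle, group means as lines and values listed at 0 as open symbols. The MCAGF8 vault libraries sit below all others for Ibsp, Spp1 and Mepe, and control vault replicate 2, MCAGF8 vault replicate 2 and control base replicate 3 stand off from their groups in most panels.

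Ibsp, the early matrix gene that can seed mineral, measured 1487, 679 and 1527 FPKM in control vault replicates 1, 2 and 3. It measured 11.5, 50.7 and 12.5 FPKM in the MCAGF8 vault and 189, 199 and 638 FPKM in the control base. The 3 groups did not overlap, with the MCAGF8 vault lowest and the control vault highest. Ibsp ranked 61 to 209 among all genes of a control vault library, 239 to 1090 in the base, and 3873 to 9801 in the MCAGF8 vault. On the estimated read scale its MCAGF8 values stood on about 421, 1686 and 401 reads, so the fall was not at the limit of detection. The log2 difference between the MCAGF8 and the control vault was -5.81 (standard error 0.64, adjusted p = 0.0146, limma), rank 1 from the lowest among 18714 genes. An exact permutation test over the 3 groups gave p = 0.00357, the smallest that the 280 possible splits allow.

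Spp1, the matrix phosphoprotein that limits crystal growth and that macrophages and osteoclasts also make, measured 841, 306 and 836 FPKM in the control vault. The MCAGF8 vault gave 11.5, 39.6 and 11.8 FPKM and the control base 89.8, 117 and 237 FPKM. As for Ibsp, the 3 groups were ordered without overlap. The log2 difference between the vaults was -5.01 (standard error 0.57, adjusted p = 0.0158, limma), rank 4 from the lowest. The exact permutation test over the 3 groups gave p = 0.00357, again the smallest possible. Summed macrophage markers (8 genes) covered 241 to 391 FPKM in the MCAGF8 vault and 251 to 321 in the control vault, and summed osteoclast markers (8 genes) 130 to 221 and 190 to 319. Of the tested markers, 0 of 8 for macrophages and 0 of 5 for osteoclasts were called between the vaults by limma. In each list 0 had an unadjusted p under 0.05. Of all genes 0.604% were called, a share at which lists this short rarely hold a call. For osteoclasts 4 of the 5 were lower and 1 higher (median log2 difference -0.38). Ctsk measured 148 to 260 FPKM in the control vault and 95.8 to 146 in the MCAGF8 vault, without overlap. The part of these cells in the Spp1 values was not tested.

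Dmp1, which binds collagen and guides mineral deposition by late osteoblasts and osteocytes, measured 75.6, 22.4 and 74.8 FPKM in the control vault. The MCAGF8 vault gave 0.159, 4.29 and 0.296 FPKM, about 8, 196 and 13 reads, and the control base gave 1.87, 4.56 and 19.2 FPKM. The vaults did not overlap, while MCAGF8 replicate 2 fell among the base libraries. That library differed from its group by more than counting error, since the 95% exact Poisson interval was 169.5 to 225 reads there, 3.45 to 15.8 in replicate 1 and 6.92 to 22.2 in replicate 3, and such intervals cover counting error only. The log2 difference between the vaults was -4.69 (standard error 0.81, adjusted p = 0.0723, limma), rank 8 from the lowest. Over the 3 groups the exact permutation p was 0.0107. The Dmp1 call was the least firm of the 3. It was lost without MCAGF8 replicate 1, 2 or 3 (adjusted p = 0.358, 0.112 and 0.211, limma) and without control vault replicate 1 or 3 (0.211 and 0.216).

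Mepe, a gene of mature osteoblasts and osteocytes whose acidic ASARM peptide inhibits mineral growth, was low everywhere. It measured 1.77, 0.934 and 2.21 FPKM in the control vault, 0.0344, 0.228 and 0 in the MCAGF8 vault, and 0.505, 0.272 and 2.93 in the base. By the read steps the MCAGF8 libraries held about 1, 6 and 0 reads, against 45, 24 and 68 in the control vault and 13, 9 and 91 in the base. The MCAGF8 values lay below all others without overlap, and the vault and base of the controls overlapped. The log2 difference between the vaults was -1.25 (standard error 0.40, adjusted p = 0.434, limma) and the gene was not called. The 1 added before taking logs is large beside these values. With 0.1 or 0.01 added the log2 difference was -3.33 or -5.04 and the adjusted p 0.168 or 0.159 (limma), still not called. The exact permutation p over the 3 groups was 0.075.

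Dspp, which encodes dentin sialoprotein and dentin phosphoprotein, was near the limit of detection. Control vault libraries gave 0.166, 0.0409 and 0.148 FPKM, MCAGF8 vault libraries 0.0482, 0 and 0.0413, and base libraries 0, 0.0106 and 0.0571. These values lay within 0.1 of whole read numbers, at 12, 3 and 13 reads, 4, 0 and 3 reads, and 0, 1 and 5 reads. The 95% exact Poisson interval of the 13 reads was 6.92 to 22.2, and a library with 0 reads allows up to 3.69. All groups overlapped, Dspp was below the filter of the main limma fit, and the exact permutation p over the 3 groups was 0.143. With no filter its log2 difference between the vaults was -0.12 (adjusted p = 0.767, limma). No difference in Dspp was detected with 3 libraries per group and so few reads. Mepe was listed above Dspp in 6 of 6 control libraries, and Dspp above Mepe in MCAGF8 replicates 1 and 3, where both stood on 4 reads or fewer.

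The ratios of mean FPKM carry the weight of MCAGF8 replicate 2. Ibsp was 49.4-fold lower in the MCAGF8 vault than in the control vault by group means and 102-fold lower without that library. The ratio for Spp1 was 31.5-fold and 56.8-fold without it, that for Dmp1 36.4-fold and 253-fold, and that for Mepe 18.7-fold and 95.4-fold. Replicate 2 of the MCAGF8 vault held the highest value of Ibsp, Spp1, Dmp1 and Mepe in its group, 4.40, 3.44 and 26.9 times the lowest for the first 3 of these genes. Replicate 2 of the control vault held the lowest value of all 5 members, and replicate 3 of the base the highest of all 5. The summed osteoblast markers, mostly Col1a1, had the same extremes, with 2864 FPKM in MCAGF8 replicate 2 (2220 to 2665 in the others). The sum was 3036 in control vault replicate 2 (4400 and 4830) and 1515 in base replicate 3 (717 and 804). Control vault replicate 2 also had the highest muscle sum of its group (5783 FPKM, against 920 and 1569). The part of this variation in the members' values was not tested.

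Against the control cranial base, Ibsp and Spp1 were called lower in the MCAGF8 vault, 2 of the 4 members tested, where 5.41% of all genes tested were called lower and 8.39% in either direction. Ibsp, Spp1 and Mepe lay below the base without overlap, as did 13% of all genes. Ibsp differed by -3.81 on the log2 scale (standard error 0.64, adjusted p = 0.0113, limma), a 13.7-fold ratio of means. Spp1 differed by -2.87 (standard error 0.57, adjusted p = 0.0211, limma), a 7.06-fold ratio. These ratios were 28.4-fold and 12.7-fold without MCAGF8 replicate 2, and 7.79-fold and 4.92-fold without base replicate 3. Without MCAGF8 replicate 1 the Spp1 call was lost (adjusted p = 0.108, limma). Dmp1 differed by -1.78 (adjusted p = 0.264, limma) with overlapping groups. Mepe differed by -0.86 (adjusted p = 0.280, limma) without overlap, and it was called when base replicate 2, the library rich in cartilage markers, was left out (-1.17, adjusted p = 0.0839, limma), a fit that called 24.5% of all genes. Without that library Ibsp and Spp1 differed by -4.08 and -2.98 and both were called. Both were also called without base replicate 1 (-4.12 and -3.17) and without base replicate 3 (-3.24 and -2.47), the libraries with low summed cartilage markers. All 4 hypertrophic chondrocyte markers (Col10a1, Mmp13, Ihh and Panx3) were also called lower in this comparison, and their sum was 11.0 to 14.2 FPKM in the MCAGF8 vault, 58.2 to 136 in the control vault and 179 to 801 in the base. Most of the sum in the vaults was Panx3, at 9.58 to 12.1 FPKM in the MCAGF8 vault and 51.9 to 124 in the control vault. In the base Panx3 measured 48.4 to 117 FPKM and overlapped the control vault. Col10a1 was at most 2.05 FPKM in the vaults and 74.2 to 658 in the base. Skeletal muscle markers (9 of 10) and brain neuron markers (4 of 6 tested) were called lower as well, and macrophage markers (4 of 8) and endothelium markers (3 of 5) were called higher, and their part in the result was not tested. The share of Ibsp and Spp1 in the base that came from hypertrophic cartilage was not tested.

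Between the control tissues all 4 members tested were lower in the base than in the vault, and 0 were called by limma (3 at an unadjusted p under 0.05, and 0 by a linear model per gene without moderation), where 1.21% of all genes were called lower, 3.06% were called in either direction and 4.71% were lower at an unadjusted p under 0.05. The log2 difference of the base from the vault was -2.00 for Ibsp (adjusted p = 0.188, limma), -2.14 for Spp1 (0.113), -2.91 for Dmp1 (0.131) and -0.40 for Mepe (0.838). The 3 base values lay below the 3 vault values for Ibsp, Spp1 and Dmp1, which held for 6.69% of all genes. Without base replicate 3, Dmp1 was called (-3.69, adjusted p = 0.0862, limma), and without MCAGF8 replicate 2, which enters this comparison through the pooled error alone, Spp1 was called (adjusted p = 0.0864). Without base replicate 2 none of the 4 was called, with log2 differences of -1.73 for Ibsp, -2.03 for Spp1, -2.76 for Dmp1 and -0.09 for Mepe.

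**Figure D2:**
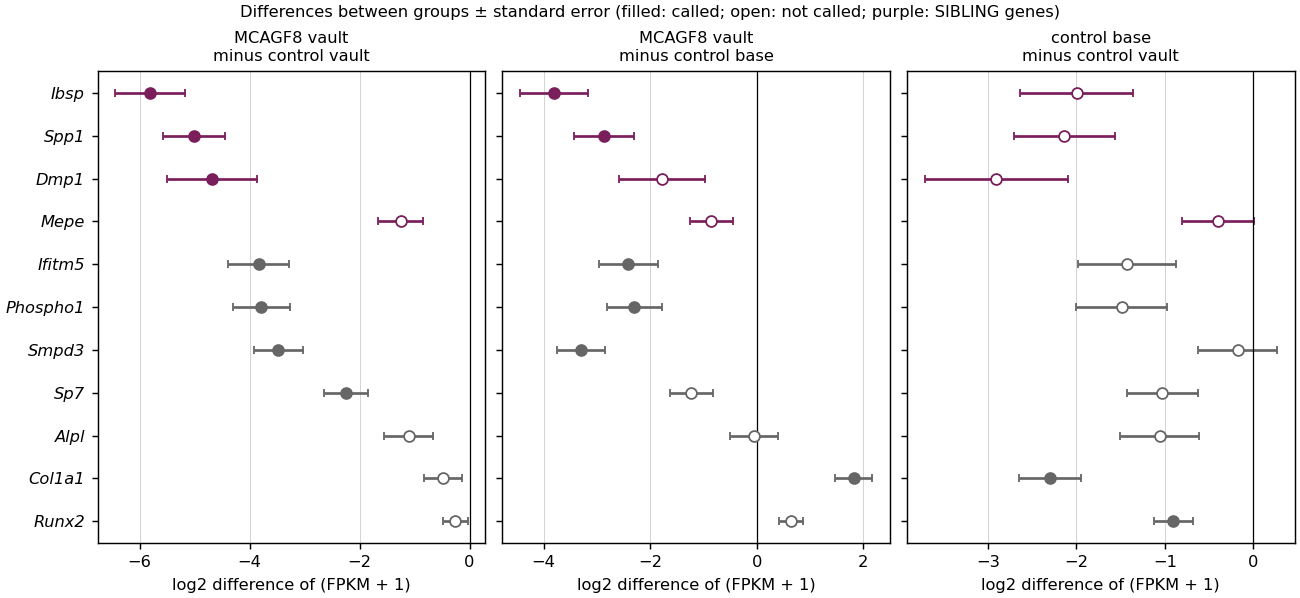
Differences of log2(FPKM + 1) between groups with standard errors, in 1 panel per comparison, for the 4 SIBLING genes tested (purple) and 7 other osteoblast genes (gray), filled where called. In the vault comparison Ibsp, Spp1 and Dmp1 lie at -5.81, -5.01 and -4.69, while Col1a1 and Runx2 lie at -0.48 and -0.26 and are not called.

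The family's share of the library gives the scale of the fall. The summed FPKM of the 5 genes made up 0.0988% to 0.259% of all FPKM in a control vault library, 0.0214% to 0.0799% in the base and 0.00274% to 0.00910% in the MCAGF8 vault. Ibsp and Spp1 supplied 95.2% to 99.2% of this sum in every library. Spp1 stood at 56.6%, 45.1% and 54.7% of Ibsp in the control vault, 47.5%, 58.6% and 37.2% in the base, and 99.9%, 78.2% and 93.8% in the MCAGF8 vault. The log2 ratio of Ibsp to Spp1 in the MCAGF8 vault differed by -0.80 from that in the control vault, without overlap, with an exact permutation p of 0.1, the smallest that 3 against 3 libraries allow (0.117 after Benjamini-Hochberg adjustment over 27 such ratios). From that in the base it differed by -0.94, also without overlap and with p = 0.1 (exact permutation, 0.117 adjusted). Between the base and the vault of the controls it differed by 0.14 with overlap (exact permutation p = 0.7).

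Ibsp and Spp1 were then set against Runx2, Col1a1, Alpl and Sp7, genes of the osteoblast lineage, within the same library. This asks whether they differed by more than those genes. How far those genes follow the number of osteoblasts in this tissue was not tested. Phospho1, Ifitm5 and Smpd3, also called lower between the vaults, were not used in such ratios. Runx2, the factor that starts the lineage, had a log2 difference of -0.26 between the vaults, with overlap (adjusted p = 0.969, limma). Col1a1, the main bone collagen chain, differed by -0.48, also with overlap (adjusted p = 0.969, limma). The log2 ratio of Ibsp to Runx2 differed by -5.55 between the MCAGF8 and the control vault, and its ratio to Col1a1 by -5.33. Its ratio to Alpl, the phosphatase that frees phosphate for mineral, differed by -4.70, and its ratio to Sp7, the factor downstream of Runx2, by -3.56. For Spp1 the same ratios differed by -4.75, -4.53, -3.90 and -2.76. The groups did not overlap in any of these 8 ratios, each with the smallest possible exact permutation p of 0.1 (adjusted 0.117). Against the base the log2 ratio of Ibsp to Col1a1 in the MCAGF8 vault differed by -5.63. Between base and vault of the controls it differed by 0.30 with overlap (exact permutation p = 0.6), and the ratio of Spp1 to Col1a1 differed by 0.16 with overlap (exact permutation p = 0.8).

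Among the osteoblast regulators 10 of 10 genes were tested, and 2 were called lower and 0 higher between the vaults, with a median log2 difference of -1.14 where 0.374% of all genes were called lower, 0.604% were called in either direction, and the median of all genes was -0.01. Sp7 fell by 2.25 on the log2 scale (adjusted p = 0.0763, limma), from 105, 55.4 and 123 FPKM in the control vault to 17.5, 20.6 and 16.0 in the MCAGF8 vault. Mef2c fell by 1.19 (adjusted p = 0.0768, limma). Dlx5 and Dlx3, homeodomain factors of osteoblasts, had log2 differences of -1.08 and -1.70 without overlap and were not called. Msx2 differed by 0.56 (adjusted p = 0.530, limma). Among 16 osteoblast matrix and mineralization genes, 4 were called lower and 0 higher, with a median of -0.79. These 4 were Phospho1 and Smpd3, which supply phosphate inside matrix vesicles, Ifitm5, a membrane protein of mineralizing osteoblasts, and Bglap2, an osteocalcin gene. Bglap2 was listed at 0 in the 3 MCAGF8 libraries and at 19.3, 2.71 and 16.5 FPKM in the control vault, and it shares nearly identical sequence with Bglap, so its share of the reads is uncertain. Of 5 osteocyte genes 4 were tested and 0 were called by limma (1 at an unadjusted p under 0.05), with a median of -0.24. The gene under 0.05 was Phex, at 5.55 to 18.0 FPKM in the control vault and 1.75 to 2.46 in the MCAGF8 vault, without overlap. Pdpn and Cd44 overlapped between the vaults, and Sost was at most 0.847 FPKM in them.

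The genes whose pattern over the 9 libraries was most like that of Ibsp were found by the mean absolute difference between their centred log2 values, among 12933 genes whose FPKM averaged 5 or more. Spp1 was nearest to Ibsp (0.39), followed by Dmp1 (0.75), Ifitm5 (0.76), Phospho1 (0.79) and Smpd3 (0.96). For Spp1 the order was Ibsp (0.39), Dmp1 (0.45), Phospho1 (0.50), Ifitm5 (0.59) and Smpd3 (0.79). Thus 2 of the 5 nearest genes of each list were other members of the cluster, and the remaining 3 were the same in both lists. Phospho1 measured 179.8, 90.5 and 240.2 FPKM in the control vault, 9.16, 20.8 and 5.83 in the MCAGF8 vault and 47.1, 36.2 and 99.6 in the base. As for Ibsp, its lowest control vault value and its highest MCAGF8 value were those of replicate 2, and its highest base value that of replicate 3. Phospho1 was picked for a like pattern in these same libraries, so this likeness is no test.

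**Figure D3:**
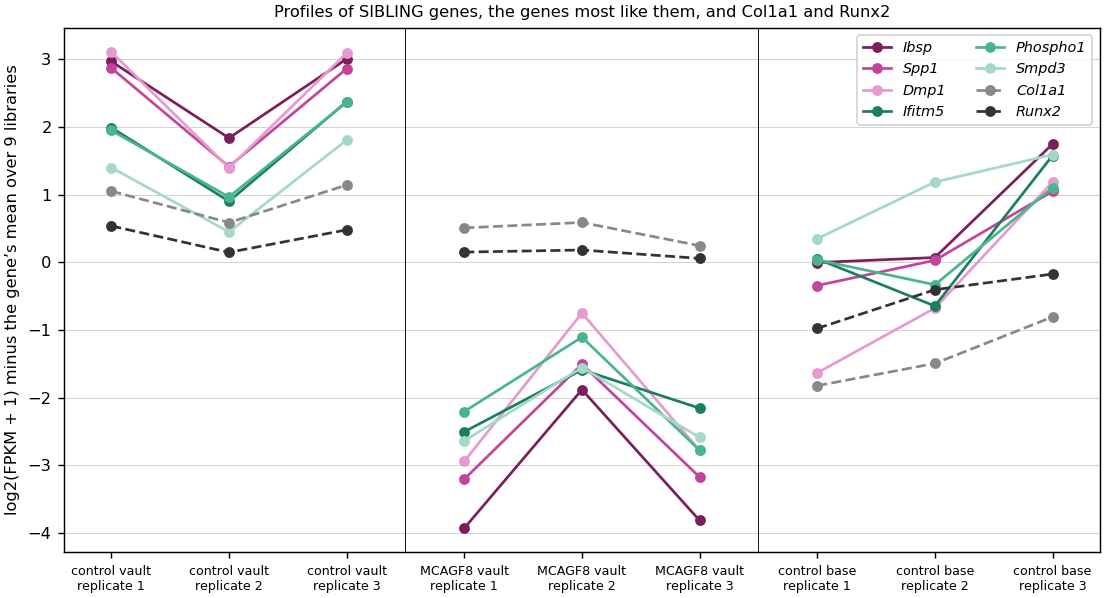
Centred log2(FPKM + 1) of Ibsp, Spp1, Dmp1, Ifitm5, Phospho1, Smpd3, Col1a1 and Runx2 in each of the 9 libraries, grouped by tissue, with lines that join libraries for legibility only. The first 6 genes drop together in the MCAGF8 vault and share the dip at control vault replicate 2 and the peak at MCAGF8 vault replicate 2, while Col1a1 and Runx2 have vault differences of -0.48 and -0.26. Ifitm5, Phospho1 and Smpd3 were picked for their likeness to Ibsp and Spp1 in these libraries, so their shared pattern is no test.

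Genes whose products act on SIBLING proteins had 0 calls between the vaults, where 0.604% of all genes were called, a share at which lists this short rarely hold a call. Against the base 6 were called, where 8.39% of all genes were. These were 1 of 10 receptors (higher), 1 higher and 1 lower of 3 kinases, and 2 higher and 1 lower of 7 proteases tested. The integrin chains and Cd44 that serve as their receptors (10 genes, all tested) had 0 calls between the vaults by limma (0 at an unadjusted p under 0.05), with differences from -0.67 to 0.57 and a median of 0.04. Against the base Itga5 was called higher (0.68, adjusted p = 0.0729, limma). Of 3 secretory pathway kinases of the Fam20 family 0 were called between the vaults (1 at an unadjusted p under 0.05, limma). Fam20c, the kinase that phosphorylates SIBLING proteins in the Golgi, measured 17.5, 11.0 and 12.9 FPKM in the control vault and 7.20, 8.48 and 5.08 in the MCAGF8 vault, without overlap (log2 difference -0.90, adjusted p = 0.439). It was called lower than in the base (-1.17, adjusted p = 0.0527, limma), where Fam20a, its pseudokinase partner, was called higher (1.10, adjusted p = 0.0758). Of 9 proteases that cut or bind these proteins 7 were tested and 0 were called between the vaults (1 at an unadjusted p under 0.05, limma), with a median of 0.20. That gene was Phex, the osteocyte and osteoblast endopeptidase that acts on ASARM peptides. Phex measured 18.0, 5.55 and 12.3 FPKM in the control vault, 1.75, 1.95 and 2.46 in the MCAGF8 vault and 5.67, 11.9 and 6.42 in the base. Its log2 difference was -1.96 between the vaults (adjusted p = 0.105, limma) and -1.50 against the base (adjusted p = 0.0652), where it was called. Mmp2 and Ctsb were called higher than in the base (0.92 and 0.78, adjusted p = 0.0824 and 0.0785, limma).

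The wider family of secretory calcium-binding phosphoprotein genes and their SPARC relatives was mostly below the filter on low values, with 3 of 9 genes tested and 0 called between the vaults (1 at an unadjusted p under 0.05, limma). Ambn, an enamel matrix gene, measured 7.08, 1.43 and 7.80 FPKM in the control vault, 0.0309, 0.239 and 0.0707 in the MCAGF8 vault and 0.419, 0.488 and 3.69 in the base. It had the within-group pattern of the SIBLING genes, with the lowest control vault value and the highest MCAGF8 value in replicate 2 and the highest base value in replicate 3. Its log2 difference between the vaults was -2.33, without overlap and not called (adjusted p = 0.200, limma). Sparc, an abundant collagen-binding protein of bone matrix, differed by -0.54 between the vaults and was not called (adjusted p = 0.957, limma). It measured 3681 to 4463 FPKM in the control vault and 2524 to 2971 in the MCAGF8 vault, without overlap.

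Of the 12 genes first listed as neighbours, 8 lie on mouse chromosome 5 by the annotation, from Aff1, whose lower coordinate is 607 kb from that of Ibsp, to Zfp951, 514 kb away on the other side, and 7 of these were tested. Between the vaults 0 of the 7 were called by limma (1 at an unadjusted p under 0.05), where 0.604% of all genes were called, with 5 higher, 2 lower and a median log2 difference of 0.26. Sparcl1, a SPARC relative on the other strand and the nearest neighbour before Dspp in the list, differed by 0.08 (adjusted p = 0.987, limma). Pkd2, which starts 24.3 kb after the Spp1 start, differed by 0.27 (adjusted p = 0.969). Aff1 had the unadjusted p under 0.05, at a log2 difference of 0.55 (adjusted p = 0.749, limma), and it was called higher than in the base (1.18, adjusted p = 0.0223).

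**Figure D4:**
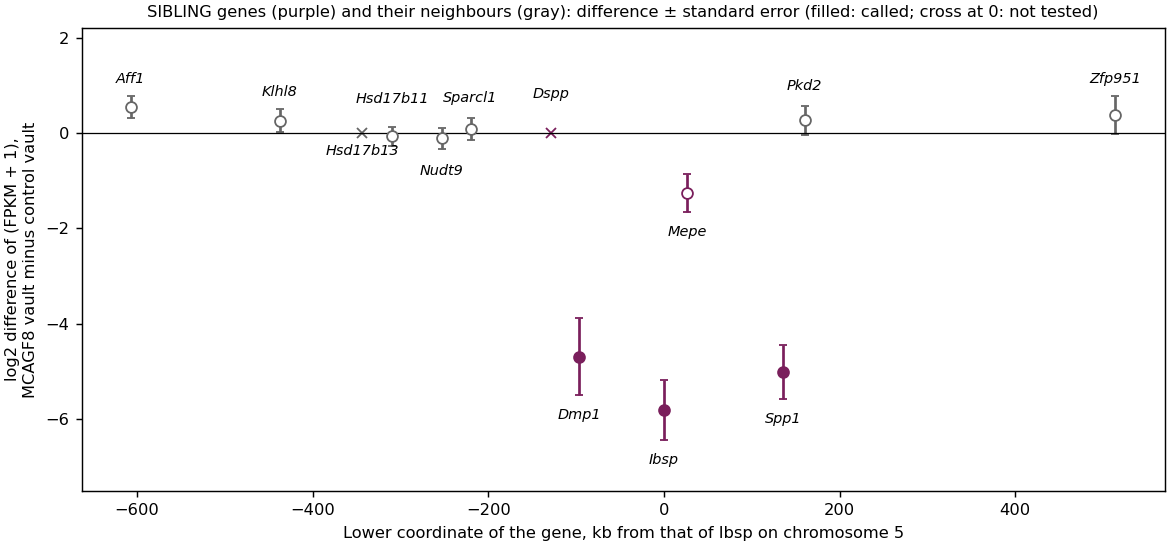
Log2 difference of (FPKM + 1) between the MCAGF8 and control vaults, with standard errors, for the SIBLING genes (purple) and their chromosome 5 neighbours (gray), placed by lower coordinate in kb from that of Ibsp, with crosses for genes not tested. Dmp1, Ibsp and Spp1 lie between -4.69 and -5.81 and the neighbours tested between -0.11 and 0.55.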

How the data were processed

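RNAseq was analysed in 9 libraries, 3 per group, each pooled from 3 tissue samples of E14.5 mouse embryos. The authors prepared stranded mRNA libraries, mapped single-end reads by gSNAP and estimated expression by Cufflinks, and deposited FPKM for each Ensembl gene. Program versions, genome build and annotation release were not given in the sources used here.

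In the deposited FPKM, 63 repeat rows were added to the row with the same identifier, and 9 genes with a placeholder number in 17 cells were left out. Genes whose FPKM averaged 0.5 or more over the libraries (18714) were tested as log2(FPKM + 1) with limma 3.58.1 in R 4.3.3 (two-sided, moderated variances with a mean trend, 1 mean per group). The fit was tested on simulated data first. A call needed p under 0.05 unadjusted and p under 0.1 after Benjamini-Hochberg adjustment. Exact permutation tests were two-sided for ratios and used the F statistic over the 3 groups. Ratios of means used no pseudocount.

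The SIBLING genes and the gene lists were chosen with earlier results of these data known. Named genes are the members, the genes of those lists, and the 5 genes nearest to Ibsp and to Spp1. Genes named beside the promoter spacing were chosen after the sequences had been seen. Reads per value were estimated from the FPKM of 1 read in single-transcript genes of at least 4000 bases (depth) or within 5% of the member's length. Alternatives were pseudocounts of 0.1 and 0.01, no filter, a filter at a mean of 5 FPKM, rescaling of each library to a sum of 1000000, quantile normalization, the libraries of the compared groups only, a replicate block, no moderation, the highest row for repeated identifiers, and each library left out. Python 3.11.15, pandas 2.3.3, numpy 2.4.6, scipy 1.17.1 and matplotlib 3.10.9 were used.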

Additional observations from a re-analysis of the deposited data

How the results depend on the processing

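No called result reversed its direction. Of the 18 results, 3 counts of members called and 15 differences, most kept their side of the threshold, with these exceptions, whose cause was not tested. A linear model per gene without moderation called 0 members between the vaults (main count 3) and 1 against the base (main count 2): Ibsp at -5.81 (adjusted p = 0.194), Spp1 at -5.01 (0.197) and Dmp1 at -4.69 (0.382) were lost between the vaults, and Spp1 at -2.87 (0.114) against the base. With no filter Dmp1 at -4.69 was lost (adjusted p = 0.184, limma), where 27685 genes were tested.

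With 1 library left out, where an arm of 2 shares the spread of the others, members called ranged from 2 to 3 between the vaults, from 1 to 3 against the base and from 0 to 1 between the control tissues. Dmp1 between the vaults ranged from -5.39 to -4.30, Spp1 against the base from -3.43 to -2.47, Mepe against the base from -1.17 to -0.35, and, between the control tissues, Spp1 from -2.62 to -1.84 and Dmp1 from -3.69 to -2.28. The log2 difference of Dspp, untested in the main fit, moved with a pseudocount of 0.1 or 0.01. Between the vaults it went from -0.12 to -0.72 or -1.85, and against the base from 0.01 to 0.090 or 0.37. Between the control tissues it went from -0.13 to -0.81 or -2.23.

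Across genes, deviations of same-numbered libraries of the vaults correlated at 0.37, -0.07 and -0.43, and those of the other pairs of groups at -0.55 to 0.24. Not every library thus correlated best with its own number. With 3 libraries per group and tissues of unlike make-up, these correlations cannot show whether the numbers pair the embryos. With the replicate block Dmp1 between the vaults stood at -4.69 and was not called (adjusted p = 0.209, limma), the block left 2 members called in that comparison and 2 against the base, and no other member's call changed. Depth limits Dspp and Mepe, with at most 13 and 91 estimated reads in a library. Counts of all genes called between the vaults were 113 here, 191 and 192 with pseudocounts of 0.1 and 0.01, 66 with no filter, 71 with the filter at 5 FPKM, 174 in the libraries of both groups only, 19 under the block and 0 without moderation. They were 13, 14 and 14 without MCAGF8 replicate 1, 2 or 3, 11, 111 and 11 without control vault replicate 1, 2 or 3, and 77, 231 and 80 without base replicate 1, 2 or 3.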
